A study of Mus musculus with 6 samples.

Results

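The genes described here encode glycosyltransferases, the Golgi enzymes that build the sugar chains of mucins and other glycoproteins. They were chosen by name: every gene whose symbol begins with Galnt, B3gnt, B3galt, B4galt, B4galnt, Gcnt, C1galt, St3gal, St6gal, St8sia or Fut, optionally further letters, and then a digit. The array carried probes for 81 such genes, and 51 of them gave a signal well above background on at least 3 of 6 arrays, out of 13492 genes measured in all. The name rule is wider than the building of mucin O-glycans, because it also takes enzymes of glycolipids, of N-glycans and of the linker of proteoglycans, and the matches included a pseudogene, Fut4-ps1, and a long noncoding RNA, St8sia3os.

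RNA came from isolated intestinal crypts, the pockets of the gut lining that hold its stem cells and secretory cells, of mice of mixed strain. The 3 control samples carried floxed Arid1a alleles (Arid1a f/f) and no Cre, and the 3 knockout samples carried the same alleles together with Villin-Cre, a recombinase driven by a promoter active in the intestinal epithelium. The Arid1a protein belongs to BAF, a complex that moves nucleosomes. Age and intestinal region are not in the labels. Nothing there tells whether replicates are separate animals, and the p-values then cover only the spread between these samples, part of which may be technical.

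O-glycosylation of mucins starts when a polypeptide GalNAc-transferase puts N-acetylgalactosamine on a serine or threonine. Core enzymes then add galactose or N-acetylglucosamine, other transferases lengthen and branch the chain, and sialic acid or fucose caps it. In the gut these chains make up much of the mass of the mucus that goblet cells secrete, and the caps are read by bacteria and by lectins of the host.

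Several properties of the arrays touch every value below. For knockout 2 and control 3 the labels contradict each other, with title and description giving one genotype and source name and genotype field the other, and groups follow the title. Arid1a itself was at 3.71, 3.47 and 4.01 on controls 1 to 3 and at 2.20, 2.07 and 2.51 on knockouts 1 to 3, on a log2 scale relative to the array's 75th percentile. Both arrays with contradicting labels thus lay on the side that their titles give, and the difference was -1.47 ± 0.21 (limma, adjusted p = 0.00733). Controls 1 and 2 and knockouts 1 and 2 shared slide 1, and control 3 and knockout 3 shared slide 2. By Xist and Y-linked genes, control 1 and knockouts 1 and 3 were male and the other 3 arrays female. Both groups thus held male and female samples, so neither came from a single animal. The share of probes well above background ran from 41.7% to 54.7% over the arrays, and no spot was saturated.

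Of the 51 measured glycosyltransferase genes, 15 (29.4%) differed between knockout and control at an adjusted p under 0.05, where 14.9% of all genes tested did. Of these 6 rose and 9 fell. Gcnt1, which branches O-glycan cores, rose most, 16.2-fold, and St3gal1, which caps core chains with sialic acid, fell most, 9.13-fold. With normexp background correction these log2 differences shrank from 4.02 to 3.16 and from -3.19 to -2.34, and both stayed past the threshold (adjusted p = 0.000692 and 0.00642). The share of members that rose was 11.8%, against 7.28% of all genes, and the share that fell was 17.6%, against 7.63%. With a difference of at least 2-fold required as well, 6 members were higher (4.83% of all genes) and 3 were lower (5.16% of all genes). The median difference over the 51 members was -0.17 on the log2 scale and that over all genes was -0.01, while the median absolute difference was 0.63 for the members and 0.39 for all genes. In 31 members the 3 knockout values lay wholly above (14) or below (17) the 3 control values, which is 60.8% of the members, and 39.7% of all genes tested showed the same.

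**Figure D1:**
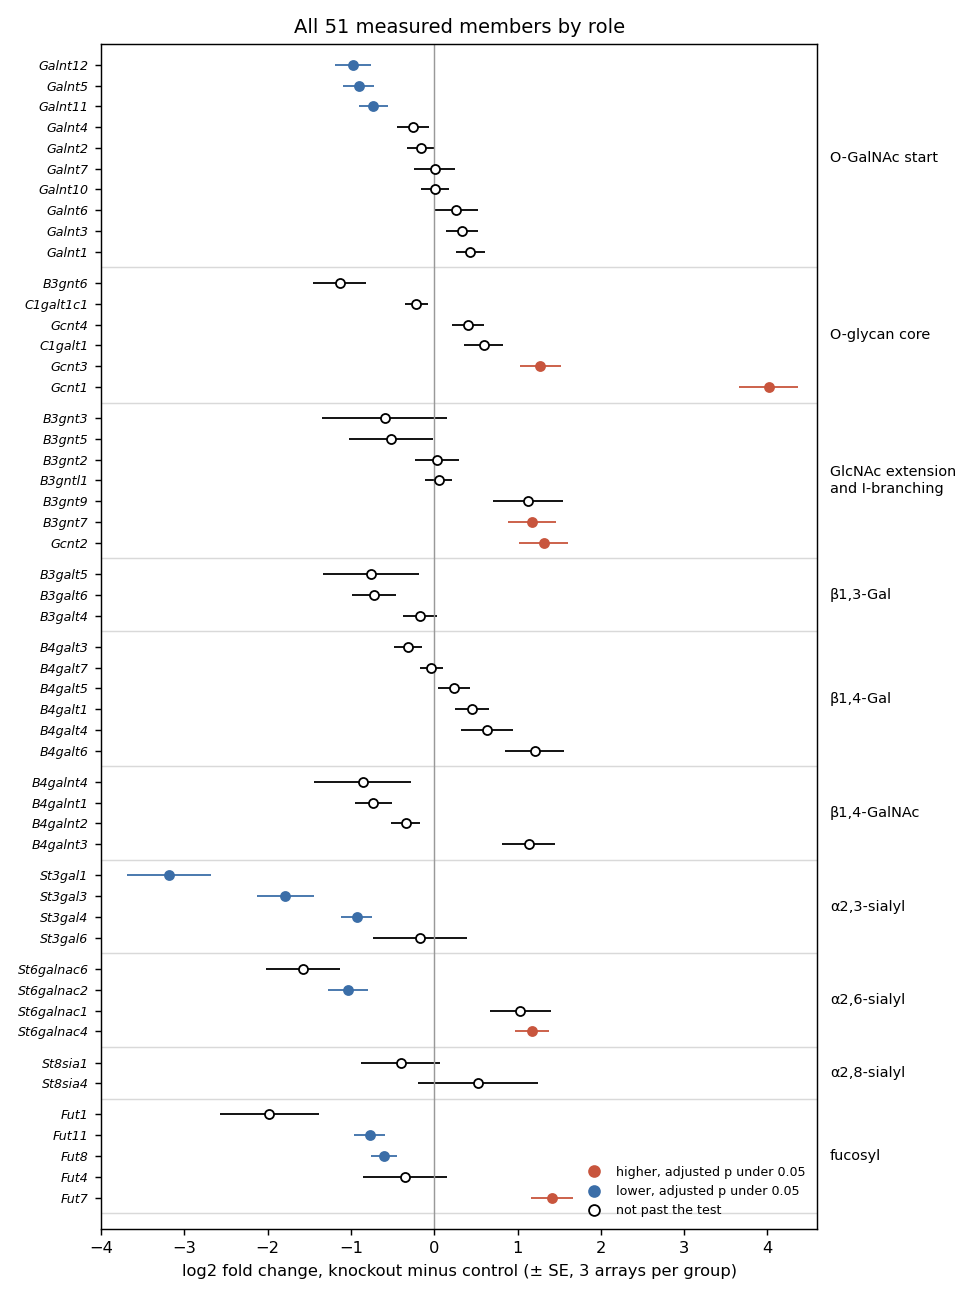
Log2 difference between knockout and control (knockout minus control, x axis) with its standard error for each of the 51 measured members, grouped by role. The point of Gcnt1 lies farthest to the right at 4.02 and that of St3gal1 farthest to the left at -3.19.

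The core enzymes decide which kind of O-glycan grows from the first sugar. Of 7 in the class, 6 were measured, 2 rose, 0 fell, and the median difference was 0.50. Gcnt1, the core 2 branching enzyme best known from leukocytes, was at -1.85, -1.03 and -1.75 on the controls and at 2.38, 1.93 and 3.1 on the knockouts. Every knockout array lay above every control array, by a log2 difference of 4.02 ± 0.36 (limma, adjusted p = 0.00159). The gene was read by 1 probe, which was well above background on all 6 arrays. The difference was 3.60 on slide 1 and 4.86 on slide 2, and the adjusted p stayed between 0.00293 and 0.0113 when each array was left out in turn.

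Gcnt3 encodes the mucin-type branching enzyme, which makes core 2 and core 4 structures in gut mucins. It was at 2.34, 2.39 and 2.41 on the controls and at 3.60, 4.14 and 3.22 on the knockouts. The groups did not overlap, and the log2 difference was 1.27 ± 0.25 (2.42-fold, adjusted p = 0.0205). A second probe of Gcnt3 gave 1.40. Without control 1, 2 or 3 its adjusted p was 0.0812, 0.0729 and 0.0684.

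The other core enzymes did not pass the test. C1galt1, the core 1 synthase, was at 0.43, 0.51 and 0.53 on the controls and at 0.60, 1.42 and 1.23 on the knockouts, with a difference of 0.59 ± 0.23 (adjusted p = 0.131). C1galt1c1, the chaperone that the core 1 synthase needs, differed by -0.22 (adjusted p = 0.298). B3gnt6, the core 3 synthase of the intestine, was at -1.66, -0.75 and -1.0 on the controls and at -2.16, -1.89 and -2.77 on the knockouts. Its groups did not overlap either, and its difference of -1.14 ± 0.32 missed the threshold (adjusted p = 0.0588). Gcnt4, a further core 2 enzyme, differed by 0.40 (adjusted p = 0.193). Averaged over the 6 measured core enzymes, the deviation from the control mean was between -0.14 and 0.12 on the control arrays and between 0.73 and 0.90 on the knockout arrays. Gcnt1 made up most of this: over the other 5 the deviation was -0.11, 0.04 and 0.06 on the controls and 0.09, 0.38 and 0.08 on the knockouts.

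Gcnt1 and Fut7 are also expressed by leukocytes, so the markers of T cells and intraepithelial lymphocytes are set beside them. Of 12 listed markers 11 were measured, 1 rose (Thy1), and the median difference was 0.70. Their summed signal relative to the 75th percentile was 36.17, 126.2 and 78.18 on the controls and 129.2, 49.51 and 117.1 on the knockouts. The groups thus overlapped in this sum. Gzma largely sets it, at 4.93, 6.79 and 6.02 on the controls and 6.72, 5.36 and 6.59 on the knockouts (log2 scale). Of the differences of the 11 single markers, 10 were positive and 1 was negative. In the same order of arrays, Gcnt1 was at -1.85, -1.03 and -1.75 on the controls and at 2.38, 1.93 and 3.1 on the knockouts. The part of these cells in the results was not tested.

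**Figure D2:**
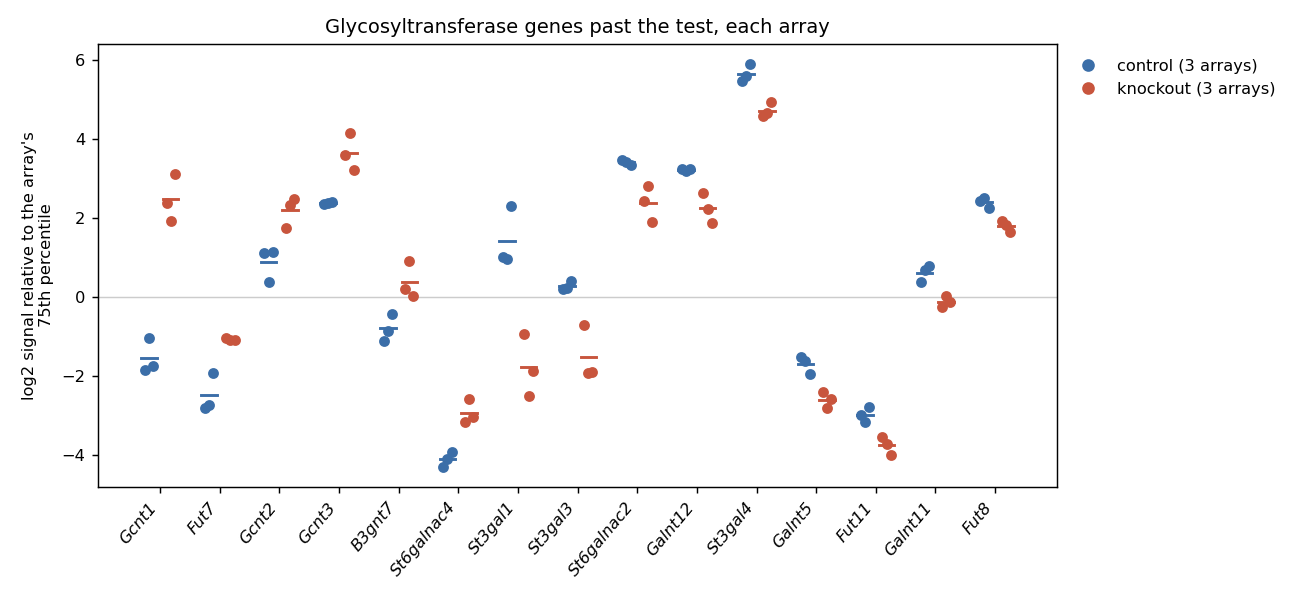
Log2 signal on the 75th percentile scale (y axis) on each of the 3 control and 3 knockout arrays for the 15 members past the test, with bars at the group means. Points of the groups do not overlap in any of the 15 genes, which the test itself favours.

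The transferases that lengthen and branch the chains by N-acetylglucosamine had 7 of 9 members measured, of which 2 rose and 0 fell, with a median difference of 0.05. Gcnt2, the I-branching enzyme, turns linear poly-N-acetyllactosamine into branched chains. It was at 1.12, 0.37 and 1.13 on the controls and at 1.75, 2.33 and 2.49 on the knockouts. All knockouts were above all controls, by 1.31 ± 0.29 (2.49-fold, adjusted p = 0.0308), and it passed only when knockout 1 was left out, with adjusted p between 0.0148 and 0.0967 over the 6 arrays. The gene had 3 kept probes. A probe to another transcript of Gcnt2 gave 2.20 (adjusted p = 0.0200 over all kept probes) and was well above background on 1 control and all 3 knockouts. The third probe reached that level on 0 controls, so that its difference is a bound of at least 2.86-fold, with an adjusted p of 0.0532. Both of these probes passed the filter through the knockouts, so they are no separate support for the rise.

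B3gnt7 extends poly-N-acetyllactosamine and keratan sulfate chains. It was at -1.11, -0.85 and -0.43 on the controls and at 0.20, 0.91 and 0.03 on the knockouts. The difference was 1.17 ± 0.29 (2.26-fold, adjusted p = 0.0418), with 1.53 on slide 1 and 0.46 on slide 2, and it was lost with the slide as a block (adjusted p = 0.0537). Without control 1 its adjusted p was 0.145. The 5 others, B3gnt2, B3gnt3, B3gnt5, B3gnt9 and B3gntl1, ranged from -0.60 (B3gnt3, which lengthens core 1 chains) to 1.12 (B3gnt9), with adjusted p from 0.115 to 0.941.

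Sialyltransferases that join sialic acid by an alpha-2,3 bond had the lowest median difference of the 10 classes, -1.36. Of 6 members 4 were measured, 0 rose and 3 fell. St3gal1, which caps the galactose of core 1, was at 1.02, 0.97 and 2.29 on the controls and at -0.93, -2.50 and -1.87 on the knockouts. Control 3 was the highest of the controls, and every knockout was below every control, by -3.19 ± 0.50 (adjusted p = 0.0111). A second St3gal1 probe gave -3.82. The difference was -2.71 on slide 1 and -4.15 on slide 2, and adjusted p stayed between 0.00667 and 0.0338 with each array left out. Without both arrays of contradicting labels, St3gal1 was at -2.39 with an adjusted p of 0.0572.

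St3gal3 and St3gal4 act mainly on the galactose of N-acetyllactosamine ends. St3gal3 was at 0.20, 0.23 and 0.41 on the controls and at -0.70, -1.93 and -1.91 on the knockouts. The knockouts were all lower, with knockout 1 nearest to the controls, and the difference was -1.79 ± 0.34 (3.46-fold, adjusted p = 0.0201). It passed only without knockout 1 (adjusted p = 0.00180) or knockout 3 (0.0470), and reached 0.0727 without control 3. St3gal4 was at 5.46, 5.59 and 5.89 on the controls and at 4.56, 4.65 and 4.92 on the knockouts, a difference of -0.93 ± 0.19 (1.91-fold, adjusted p = 0.0219). A second probe of St3gal4, to another transcript, gave 0.06, and with the mean of both probes the difference was -0.43 (adjusted p = 0.236). The call on St3gal4 therefore holds for 1 of its 2 probes. St3gal6, the remaining one measured, differed by -0.17 ± 0.57 (adjusted p = 0.847). Averaged over the 4 measured enzymes, the deviation from the control mean was -0.12, -0.16 and 0.28 on the controls and -1.30, -1.47 and -1.79 on the knockouts. Without St3gal1 the knockouts were at -0.95, -0.65 and -1.29.

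The alpha-2,6-sialyltransferases moved both ways: of 8, 4 were measured, 1 rose, 1 fell and the median difference was -0.00. St6galnac2, which puts sialic acid on the first sugar of the O-glycan, was at 3.47, 3.42 and 3.34 on the controls and at 2.42, 2.80 and 1.90 on the knockouts. The groups did not overlap, and the gene fell by 1.04 ± 0.24 on the log2 scale (2.06-fold, adjusted p = 0.0359). Its second probe gave -0.40 with an adjusted p of 0.232 over all kept probes. St6galnac4, which adds a sialic acid to chains already capped by an alpha-2,3-linked one, was at -4.30, -4.09 and -3.92 on the controls and at -3.16, -2.58 and -3.05 on the knockouts. The difference was 1.17 ± 0.21 (adjusted p = 0.0162), from a signal well above background on 1 of 3 controls, so that St6galnac4 passed the filter through the knockouts. With normexp background correction it was 0.35 (adjusted p = 0.142). Without control 1 the adjusted p was 0.124 for St6galnac2 and 0.0716 for St6galnac4, and without control 2 it was 0.106 and 0.0621.

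St6galnac1, the sialyl-Tn synthase of goblet cells, was at 2.54, 3.58 and 2.73 on the controls and at 3.37, 4.29 and 4.29 on the knockouts. These groups overlapped, since control 2 lay above knockout 1, and the difference of 1.04 ± 0.37 did not pass (adjusted p = 0.103). St6galnac6, known for sialylating glycolipids, differed by -1.57 ± 0.44 without passing (adjusted p = 0.0588). Of the 6 alpha-2,8-sialyltransferase symbols 2 were measured and 0 passed. St8sia1, which makes the ganglioside GD3, was at -3.97, -4.06 and -3.67 on the controls and at -3.21, -5.16 and -4.54 on the knockouts, a difference of -0.40 ± 0.47 (adjusted p = 0.572). Its groups overlapped, and the sign turned to 0.12 with another background correction.

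Fucosyltransferases had 5 of 8 members measured, of which 1 rose and 2 fell, with a median of -0.60. Fut7 completes sialyl Lewis x, the selectin ligand, and is best known from leukocytes. It was at -2.81, -2.73 and -1.92 on the controls and at -1.05, -1.09 and -1.08 on the knockouts. The 3 knockouts were close together and all higher, by 1.41 ± 0.26 (2.66-fold, adjusted p = 0.0170). With normexp background correction the difference was 0.79 (adjusted p = 0.0133). It was 1.70 on slide 1 and 0.84 on slide 2 as reported, and without control 1, control 2 or knockout 2 the adjusted p was 0.0675, 0.0675 and 0.0544. The summed lymphocyte marker signal, which Gzma largely sets, ran from 49.51 to 129.2 on the same knockouts. The part of lymphocytes in the Fut7 result was not tested.

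Fut8, which adds the core fucose of N-glycans, was at 2.44, 2.50 and 2.25 on the controls and at 1.92, 1.82 and 1.65 on the knockouts. It fell by 0.60 ± 0.16 on the log2 scale (1.52-fold, adjusted p = 0.0482), with -0.60 on each slide, and passed only without knockout 1 of the 6 arrays. Fut11 was at -3.00, -3.16 and -2.78 on the controls and at -3.55, -3.72 and -3.99 on the knockouts, a difference of -0.78 ± 0.19 (adjusted p = 0.0389). Both genes had all knockouts below all controls, and Fut11 was well above background on 2 of 3 knockouts. With normexp background correction Fut11 was at -0.04 (adjusted p = 0.838), and with quantile normalization Fut8 had an adjusted p of 0.0544. Fut1, which makes the H antigen, was at -1.24, -1.68 and -1.98 on the controls and at -3.03, -5.05 and -2.77 on the knockouts. Its difference of -1.98 ± 0.59 did not pass (adjusted p = 0.0684), and the knockout values were widely spread. Fut1 passed with the normexp correction, sex as a block, array quality weights, each array set to its median, or without knockout 1. Fut4, a maker of Lewis x, differed by -0.35 (adjusted p = 0.652). Fut2, the secretor enzyme known as the main source of fucose on gut mucins, had 1 probe, which was well above background on 0 arrays, so that no value is given.

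The promoters of Gcnt2 and Fut8 are shown because they are the called members, 1 higher and 1 lower, whose windows held more than one of the motifs searched. The windows are the 250 bases before the annotated start, on the plus strand of assembly GRCm38.p6, from RefSeq, Gcnt2 at chr13:40886508-40886757 and Fut8 at chr12:77409891-77410140. Capitals mark the letters TTCNNNGAA (a STAT motif), ATTGTT (Sox) and CTTTGA (TCF) on either strand; in Fut8 a TCF and a Sox match overlap.
Gcnt2: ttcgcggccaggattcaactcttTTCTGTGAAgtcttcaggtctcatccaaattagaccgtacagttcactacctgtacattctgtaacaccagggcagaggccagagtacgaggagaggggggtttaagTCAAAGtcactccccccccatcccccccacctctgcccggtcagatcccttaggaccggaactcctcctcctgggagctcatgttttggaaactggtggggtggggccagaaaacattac
Fut8: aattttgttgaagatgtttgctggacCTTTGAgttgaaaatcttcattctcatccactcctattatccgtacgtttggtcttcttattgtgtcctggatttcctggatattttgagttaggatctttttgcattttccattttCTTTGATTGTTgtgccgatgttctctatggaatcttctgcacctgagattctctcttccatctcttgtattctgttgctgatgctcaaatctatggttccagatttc
The first match in Gcnt2 is the STAT motif, at position -227 from the start, and the other is the TCF motif on the opposite strand. Gcnt2 and Fut8 had further windows that are not shown, some of them without a match, and no start was tied to the measured probe. A window was found for 11 of the 15 called members and for 38 of the 51 measured ones, with several starts for some genes. The STAT letters were in 7.69% of the 52 windows of measured members and in 7.02% of all 32851 windows, and the Sox letters in 3.85% against 9.42%. The TCF letters were in 13.5% against 13.8%. The matches are a description of letters, not of binding sites.

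The polypeptide GalNAc-transferases, which start the O-glycans, had 10 of 19 members measured, of which 0 rose and 3 fell, with a median of -0.08. Galnt12, an enzyme of the digestive tract that acts on mucin peptides, was at 3.23, 3.19 and 3.25 on the controls and at 2.63, 2.23 and 1.88 on the knockouts. It fell by 0.98 ± 0.21 on the log2 scale (1.97-fold, adjusted p = 0.0298), and the controls lay within less than 0.1 of each other. Galnt5 was at -1.53, -1.63 and -1.94 on the controls and at -2.41, -2.82 and -2.59 on the knockouts, a difference of -0.91 ± 0.19 (adjusted p = 0.0252), and its second probe gave -1.62 (adjusted p = 0.122 over all kept probes). With normexp background correction Galnt5 was at -0.32 (adjusted p = 0.131). Galnt11 was at 0.38, 0.67 and 0.79 on the controls and at -0.26, 0.03 and -0.12 on the knockouts, a difference of -0.73 ± 0.18 (adjusted p = 0.0389). In all 3 genes every knockout was below every control. Without control 1 the adjusted p was 0.109 for Galnt12, 0.107 for Galnt5 and 0.0742 for Galnt11, and Galnt12 and Galnt11 passed only without knockout 1.

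The other 7 starters did not pass, with differences from -0.26 (Galnt4) to 0.43 (Galnt1). Galnt6 was at 6.47, 6.36 and 6.92 on the controls and at 6.37, 6.95 and 7.21 on the knockouts. Those groups overlapped, and the difference was 0.26 ± 0.27 (adjusted p = 0.516). For Galnt1 all knockouts were above all controls on the probe used (adjusted p = 0.138). A second Galnt1 probe gave 0.68 (adjusted p = 0.0442 over all kept probes). Galnt10 differed by 0.01 on the probe used, while its second probe gave -0.71 (adjusted p = 0.0367 over all kept probes).

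Galactosyl- and beta-1,4-GalNAc-transferases build the inner and outer parts of the chains, and 0 of the 13 measured passed. The 3 measured beta-1,3-galactosyltransferases had a median of -0.73. B3galt6, which works on the linker of proteoglycans, was at -0.38, 0.11 and -0.83 on the controls and at -1.12, -0.89 and -1.27 on the knockouts, a difference of -0.73 ± 0.26 (adjusted p = 0.106). B3galt5, the maker of type 1 chains in the gut, differed by -0.76 ± 0.58 (adjusted p = 0.382). Neither is a call, although the B3galt6 groups did not overlap.

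The 6 measured beta-1,4-galactosyltransferases had a median of 0.35. B4galt1, the most general maker of N-acetyllactosamine, was at 5.46, 5.69 and 5.53 on the controls and at 5.76, 6.37 and 5.90 on the knockouts, a difference of 0.45 ± 0.20 (adjusted p = 0.164). B4galt6, a lactosylceramide synthase, was at 1.11, 1.05 and 1.94 on the controls and at 2.02, 2.61 and 3.09 on the knockouts, with 1.21 ± 0.35 (adjusted p = 0.0641, and 0.0161 with the slide as a block). In both genes all knockouts were above all controls.

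The 4 beta-1,4-GalNAc-transferases were all measured, with a median of -0.54. B4galnt2, which makes the Sda antigen of the gut epithelium, was at 7.04, 6.89 and 7.01 on the controls and at 6.67, 6.86 and 6.38 on the knockouts, a difference of -0.35 ± 0.18 (adjusted p = 0.211). B4galnt3, which makes LacdiNAc ends, was at -4.23, -3.95 and -3.38 on the controls and at -2.95, -3.05 and -2.16 on the knockouts, with 1.13 ± 0.32 (adjusted p = 0.0583, and 0.00917 with the slide as a block). Its signal was well above background on 1 of 3 controls and on all 3 knockouts. B4galnt3 thus passed the filter through the knockouts, and neither adjusted p is separate support for a rise. B4galnt1, the GM2 ganglioside synthase, differed by -0.74 (adjusted p = 0.0693).

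The 15 calls differed in how much they rested on single arrays. Gcnt1 and St3gal1 alone passed without control 1 and without control 2. Without control 3 they were joined by Fut7, Galnt5 and St6galnac4. Without knockout 2, Gcnt1, Gcnt3, St3gal1, St6galnac2 and St6galnac4 passed, and without knockout 3 there were 8. Without knockout 1 all 15 passed, with 6 further members. The sign of all 15 held in each of these fits. With sex as a block 8 of the 15 passed, and St3gal4, Galnt12, Gcnt2, St6galnac2, Galnt11, Fut11 and Fut8 did not. On both slides the 15 had the same sign, which their choice by the test favours, as did 28 of the 36 members that did not pass and 81.2% of all genes tested.

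**Figure D3:**
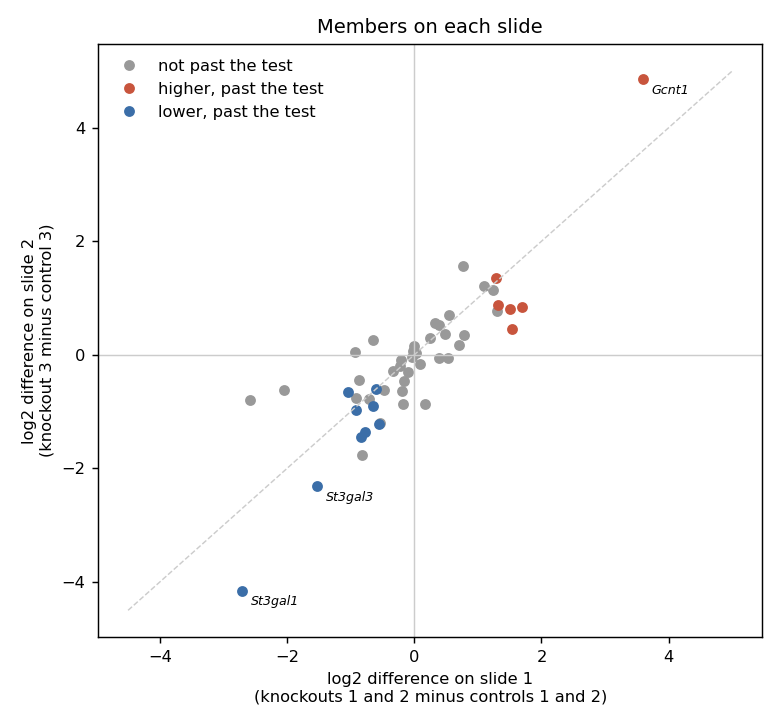
Log2 difference on slide 1 (knockouts 1 and 2 minus controls 1 and 2, x axis) against that on slide 2 (knockout 3 minus control 3, y axis) for the 51 members, with a dashed line of equality. Gcnt1 lies at 3.60 and 4.86, St3gal1 at -2.71 and -4.15, and no member past the test lies in a quadrant of opposite signs.

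The scale of the arrays moves the balance of calls. With each array set to its median in place of its 75th percentile, the median difference of all genes was -0.26, and 28.8% of the called genes were higher, in place of 48.8%. Among the members 4 were then called higher and 13 lower, with Gcnt2 and B3gnt7 no longer past the threshold and no sign turned among the 15. Of the other genes described as higher below, Gfpt1 (adjusted p = 0.0529), Cmas (0.162) and Mgat5 (0.0511) were lost on this scale. Uap1l1, also described as higher, was not followed on it. B3galt6 (0.0423), B3gnt6, Fut1 and St6galnac6 came past the threshold as lower.

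**Figure D4:**
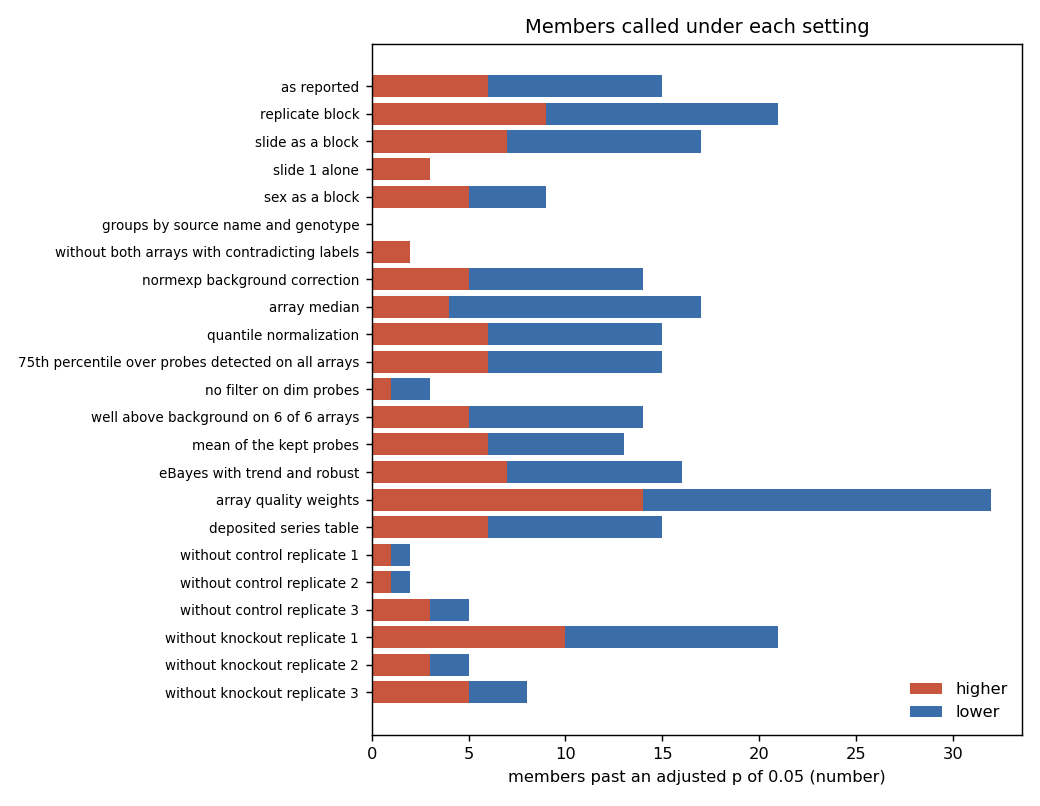
Number of members past an adjusted p of 0.05 (x axis), higher and lower, in the fit as reported and under each alternative setting. The count is 15 as reported, 0 with groups taken from source name and genotype, and 32 with array quality weights.

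The substrates of these enzymes were examined through lists of other genes. Of 14 mucin backbone genes 4 were measured, and 0 rose or fell, with a median of -0.09. Muc2, the main gel-forming mucin of the intestine, was at 5.67, 5.35 and 4.80 on the controls and at 4.72, 5.12 and 5.80 on the knockouts. The groups overlapped, and the difference was -0.06 ± 0.34 (adjusted p = 0.914). Its sign turned to 0.15 with the mean of its probes.

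Nucleotide sugar synthesis, which supplies the donors, had 17 of 21 genes measured, 3 higher and 3 lower, with a median of 0.00. Gne, the enzyme at the entry of sialic acid synthesis, was at 3.06, 2.93 and 2.81 on the controls and at 1.92, 1.22 and 1.43 on the knockouts. All knockouts were lower, by -1.41 ± 0.22 (2.66-fold, adjusted p = 0.0101). Nanp and Nans, which act after Gne in the same route, fell by 0.94 and 0.73 on the log2 scale (adjusted p = 0.0124 and 0.0328). Cmas, which activates sialic acid to its donor form, rose by 0.78 (adjusted p = 0.0253). Gfpt1, at the entry of the hexosamine pathway, was at 5.15, 4.97 and 5.40 on the controls and at 6.04, 6.40 and 6.30 on the knockouts, and rose by 1.07 ± 0.18 (2.11-fold, adjusted p = 0.0147). Uap1l1 rose by 0.89 (adjusted p = 0.0401), and it and Nans were named after their values were seen. Gne passed without each array. Without control 1 the adjusted p was 0.0659 for Nanp, 0.0663 for Gfpt1, 0.136 for Nans and 0.144 for Uap1l1, and without control 2 it was 0.0907 for Cmas.

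Of 10 Golgi sugar transporters, all measured, 1 rose and 0 fell, with a median of -0.07. Slc35d2, a nucleotide sugar carrier, was at 2.01, 2.15 and 2.17 on the controls and at 3.06, 3.51 and 3.30 on the knockouts. The groups were far apart, with a difference of 1.18 ± 0.17 (adjusted p = 0.00843). Of 15 sugar sulfotransferases 4 were measured and 1 rose, Chst4, which sulfates N-acetylglucosamine on mucin-type chains, by 1.30 ± 0.31 (adjusted p = 0.0374). Sialidases and genes of sialic acid O-acetylation had 5 of 6 measured, 0 higher and 2 lower. Neu3, a sialidase that acts on gangliosides, was at 0.54, 0.14 and 0.14 on the controls and at -2.63, -3.38 and -3.05 on the knockouts. All knockouts were lower, by -3.29 ± 0.24 (9.81-fold, adjusted p = 0.000844), and by -1.96 with normexp background correction. Casd1, the sialic acid O-acetyltransferase, fell by 1.23 ± 0.17 on the log2 scale (adjusted p = 0.00739). In the list of other terminal and branching glycosyltransferases 15 of 19 were measured, 1 higher and 3 lower. Mgat5, an N-glycan branching enzyme, rose by 0.98 (adjusted p = 0.00926). Mgat4b and Mgat2, of the same pathway, fell by 0.97 and 0.67 on the log2 scale (adjusted p = 0.0335 and 0.0397), and Pofut1, the O-fucosyltransferase of Notch, fell by 0.83 (adjusted p = 0.0213). Slc35d2, Neu3 and Casd1 passed without each array. Without control 1 the adjusted p was 0.132 for Chst4, 0.0522 for Mgat5, 0.0953 for Pofut1 and 0.126 for Mgat4b, and without knockout 2 it was 0.131 for Mgat2.

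**Figure D5:**
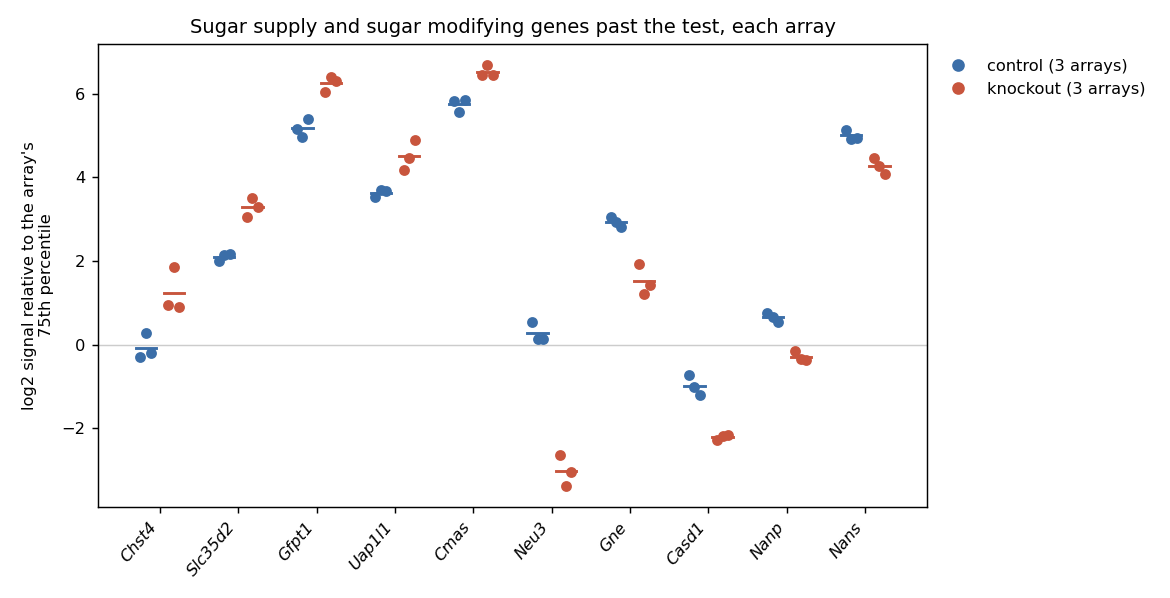
Log2 signal on the 75th percentile scale (y axis) on each of the 3 control and 3 knockout arrays for 10 genes of sugar supply, sulfation, desialylation and O-acetylation that passed the test, with bars at the group means. Gne, Nanp, Nans, Neu3 and Casd1 are lower in the knockouts, and Cmas, Gfpt1, Slc35d2, Chst4 and Uap1l1 are higher.

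The summed signal of goblet, Paneth, crypt base stem and tuft cell markers was lower on every knockout than on every control. In bulk RNA, fewer cells of a type and less RNA per cell cannot be told apart. All 18 goblet cell markers were measured, 0 rose and 9 fell, with a median of -0.99, and their summed signal was between 2029 and 2104 on the controls and between 1039 and 1454 on the knockouts. Of 12 Paneth cell markers 9 were measured and 6 fell, with sums of 2064 to 2297 against 223 to 1169. Of 12 markers of crypt base stem cells 11 were measured and 3 fell, with sums of 67.75 to 92.23 against 12.45 to 40.78; Olfm4 was not measured here. All 14 markers of absorptive enterocytes were measured and 1 fell, with overlapping sums of 4127 to 5130 against 3308 to 6216. Of 9 tuft cell markers measured, out of 12, 0 rose and 3 fell, with sums of 20.23 to 25.38 against 11.18 to 14.59. Of 13 enteroendocrine markers, all measured, 3 rose and 1 fell. Outside the epithelium, macrophage markers (6 of 9 measured) had overlapping sums of 63.55 to 120.3 against 103.4 to 192.2, which Itgam (5.69 to 7.55 on the log2 scale) largely sets. Of them Cd68 rose (adjusted p = 0.0190) and Lyz2 fell 10.8-fold (adjusted p = 0.0311), and Adgre1, C1qa and Cx3cr1 were not above the filter. The other 5 measured macrophage markers had positive differences, and the fall of Lyz2 was not assigned to a cell type. Of 13 exocrine pancreas markers 11 were measured, 0 rose and 2 fell (Clps and Cpa1), with sums of 31.23 to 55.58 against 11.18 to 20.32. Clps largely sets the gap between these sums, at 5.52, 5.12 and 4.26 on the controls and 3.06, 2.61 and 1.70 on the knockouts. It is also on the Paneth cell list, and Ang4 is on both the goblet and Paneth cell lists. For B and plasma cells 3 of 8 were measured, for fibroblasts 1 of 8 and for endothelial cells 3 of 7, among which Ms4a1, Col1a1, Pdgfra and Cdh5 were not above the filter. The part of any of these cell types in the glycosyltransferase results was not tested.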

How the data were processed

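RNA of 3 control and 3 knockout samples was labelled with Cy3 and hybridised to one-colour Agilent arrays, per the labels. Spot intensity was extracted by the authors with Agilent Feature Extraction; the file headers give version 12.0.3.1, the submitters' processing notes 11.5.1.1. The processed intensity is background-subtracted and not scaled between arrays, per the file headers. The deposited series table holds log2 values on the 75th percentile scale, centred on each probe's median, with column medians of 0.196, 0.0610 and -0.325 (controls) and -0.0717, 0.216 and -0.184 (knockouts); it served as an alternative.

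Control and outlier spots were dropped, and a probe's spots were averaged. Log2 of processed signal minus the array's 75th percentile was taken, which lay at 295, 279 and 290 (controls) and 292, 206 and 205 (knockouts). Of 56605 probes 33767 were named through their accession in a RefSeq table (GRCm38.p6), used for names and promoters. Gene coordinates are left out because the array design used another build, mm9. A probe was kept if well above background on at least 3 arrays, and the brightest probe stood for a gene; 4726 of 13492 genes had several. Of 16 members with more than one complete probe, 5 had probes of opposite sign (B4galt7, Galnt10, Galnt7, St3gal4 and St3gal6). limma 3.58.1 (R 4.3.3) was fitted with a group term alone, then eBayes and adjustment by Benjamini-Hochberg over all genes, two-sided, at an adjusted p under 0.05; errors after ± are standard errors, n = 3 per group, and the number of arrays limits the precision. The fit was tested on simulated data.

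Members, lists and tests were chosen with earlier results of these data known. Described with 6 values were the members past the threshold, the 3 brightest and the smallest p of each role; C1galt1, B3gnt6, St6galnac1 and Fut1 were added after their values were seen, as were members given only by their difference. From other lists up to 4 called genes were named, with Arid1a and Muc2. Marker sums are sums of signal over the 75th percentile. Alternatives are given in the closing section.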

Additional observations from a re-analysis of the deposited data

How the results depend on the processing

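Under the alternatives, Gcnt1 passed the threshold in each fit except with groups taken from source name and genotype. Those groups gave 0 members past the threshold (0 higher, 0 lower) and 0 genes by limma, with 1 member and 207 genes at an unadjusted p under 0.05, and turned St3gal1 to 0.0043, B4galt1 to -0.11, St8sia1 to 0.59 and Chst4 to -0.067. Without both arrays of contradicting labels 2 members (2 higher, 0 lower) and 320 genes passed, and St8sia1 was at 0.14. Slide 1 alone gave 3 members (3 higher, 0 lower) and 689 genes, and sex as a block 9 members (4 lower) and 1339 genes. With no filter on dim probes 3 members (1 higher, 2 lower) and 697 genes passed, and with array quality weights 32 members (14 higher, 18 lower) and 7097 genes. With each array left out in turn the members past the threshold numbered 2 to 21 (1 to 10 higher, 1 to 11 lower) and all genes 638 to 4033. An adjusted p under 0.1 gave 3445 genes, an adjusted p under 0.01 gave 1 member (1 higher, 0 lower) and 513 genes, and 2-fold as a further condition gave 9 members (3 lower). The normexp correction ended the calls on St6galnac4, Galnt5 and Fut11 and turned St8sia1 to 0.12, and with single arrays left out it ran from -0.952 (knockout 1) to 0.0253 (knockout 2). Muc2 was at 0.15 with the mean of the kept probes and ran from -0.355 (without knockout 3) to 0.186 (without knockout 1). Nans and Uap1l1 were not followed with the mean of the kept probes or with sex as a block. The mean of the kept probes also ended the call on Pofut1, and sex as a block those on Cmas, Mgat4b and Mgat2. The cause of these changes was not tested. The titles' replicate numbers were not shown to pair the samples. Same-numbered samples correlated at 0.246, 0.0797 and 0.352 in their deviations from the group means, and each array correlated best with its own number. However, the arrays numbered 1 were both male, those numbered 2 both female, and those numbered 3 alone were on slide 2. Pairing therefore cannot be told apart from sex and slide by these correlations. With the replicate block 21 members (9 higher, 12 lower) and 2733 genes passed, including 14 of the 15. Weak signals near background, such as those of St6galnac4, B4galnt3, Fut11 and St8sia1, limit what their differences show.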

Other observations

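Of the 81 genes matched by name 30 were left out because no probe was well above background on 3 arrays. Of these, 23 were above it on 0 arrays, 4 on 1 array and 3 on 2 arrays. St8sia3, an alpha-2,8-sialyltransferase known from the brain, was above it on 2 knockouts and 0 controls, with values of -4.09, -3.80 and -4.98 on the controls and -3.45, -4.56 and -3.94 on the knockouts, so that the groups overlapped. Among those left out were St6gal1, which puts alpha-2,6-linked sialic acid on N-glycans, St3gal2, which shares the acceptor of St3gal1, and St3gal5, the GM3 ganglioside synthase. No statement on their level is made.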
